A study of Mus musculus with 4 samples.

Results

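The piRNA pathway and germ granule genes are a set of 32 named genes, and every probe set of the array whose only gene symbol was one of them was used, whatever its level. This gave 49 of the 45101 probe sets, for 30 of the 32 genes. Tdrd6 and Fkbp6 have no such probe set. The levels come from testes of 129 strain mice taken at 2 days post partum (dpp) and kept in organ culture on an agar block for 24 h. Both groups were grown in the same medium with fetal bovine serum. One group of 2 samples received the vehicle, dimethyl sulfoxide, and the other group of 2 received WIN 18,446 at 1 µM, an inhibitor of the retinaldehyde dehydrogenases that make retinoic acid. Amplified total RNA of each sample was measured on 1 Affymetrix 430 2.0 mouse array. Whether the samples of a group are separate animals, separate cultures or technical repeats is not labelled, so that every p-value here refers to the spread between 2 such samples.

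PIWI proteins are Argonaute relatives that carry piRNAs, short RNAs of the germ line, to the transcripts of transposable elements. In the fetal and neonatal male germ cell this machinery sits in cytoplasmic granules between and beside the mitochondria. Tudor domain proteins gather there around PIWI proteins whose arginines have been methylated, helicases and nucleases cut long precursors into piRNAs, and a nuclear branch directs DNA methylation to transposon promoters. The testis at this age holds germ cells among Sertoli, Leydig, peritubular and vessel cells. In such whole-tissue RNA, fewer germ cells and less of a transcript per germ cell cannot be told apart.

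Most of the pathway was present at clear levels in these cultures, and of its tested probe sets 1 was called lower with WIN 18,446 and none higher. The values are log2 levels as the authors normalized them. Of the 49 probe sets, 36 averaged 5 or more across the arrays and were tested, and they represent 26 genes. The test was limma, fitted on all 20895 probe sets at or above that level, and a probe set with a Benjamini-Hochberg adjusted p under 0.05 over all of them is called here. Over the whole array 5.18% of the probe sets tested were called, 2.27% higher and 2.91% lower. Among the 36 of the pathway, 0 were called higher, 1 was called lower (Tdrd9) and 35 were not called, a share of 2.78%. With 1 probe set per gene, that of highest mean, 1 of 26 genes (3.85%) was called, against 6.40% of all 10970 genes represented in the same way. Fitted instead on 1 mean value per gene, limma called 3 of the 26, Tdrd9 and Gpat2 lower and Tdrkh higher, beside 10.3% of all genes.

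The log2 differences of the 36 probe sets, WIN 18,446 minus vehicle, ran from -1.02 to 0.93. They were above 0 for 18 probe sets and below 0 for 18, and their median was 0.0037, beside -0.02 over all probe sets tested. Their median size without sign was 0.21, beside 0.18 over all. At an unadjusted p under 0.05 limma gave 10 of the 36 (27.8%), 3 higher and 7 lower, beside 22.0% of all probe sets tested. The vehicle and treated arrays did not overlap in 22 of the 36 (61.1%), 10 higher and 12 lower, beside 53.1% of all. A difference of at least 0.5 in size was seen in 7 of the 36, beside 17.3% of all, and of at least 1 in 1, beside 5.31%. These shares lie near those of the whole array. The standard errors of the 36 differences ran from 0.05 to 0.37, with a median of 0.15. For 29 of the 36 the unadjusted 95% interval of the difference lay within 2-fold in either direction, as it did for 79.6% of all probe sets tested. With 2 arrays a group the smallest p of an exact permutation test is 0.333, and none was run.

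**Figure D1:**
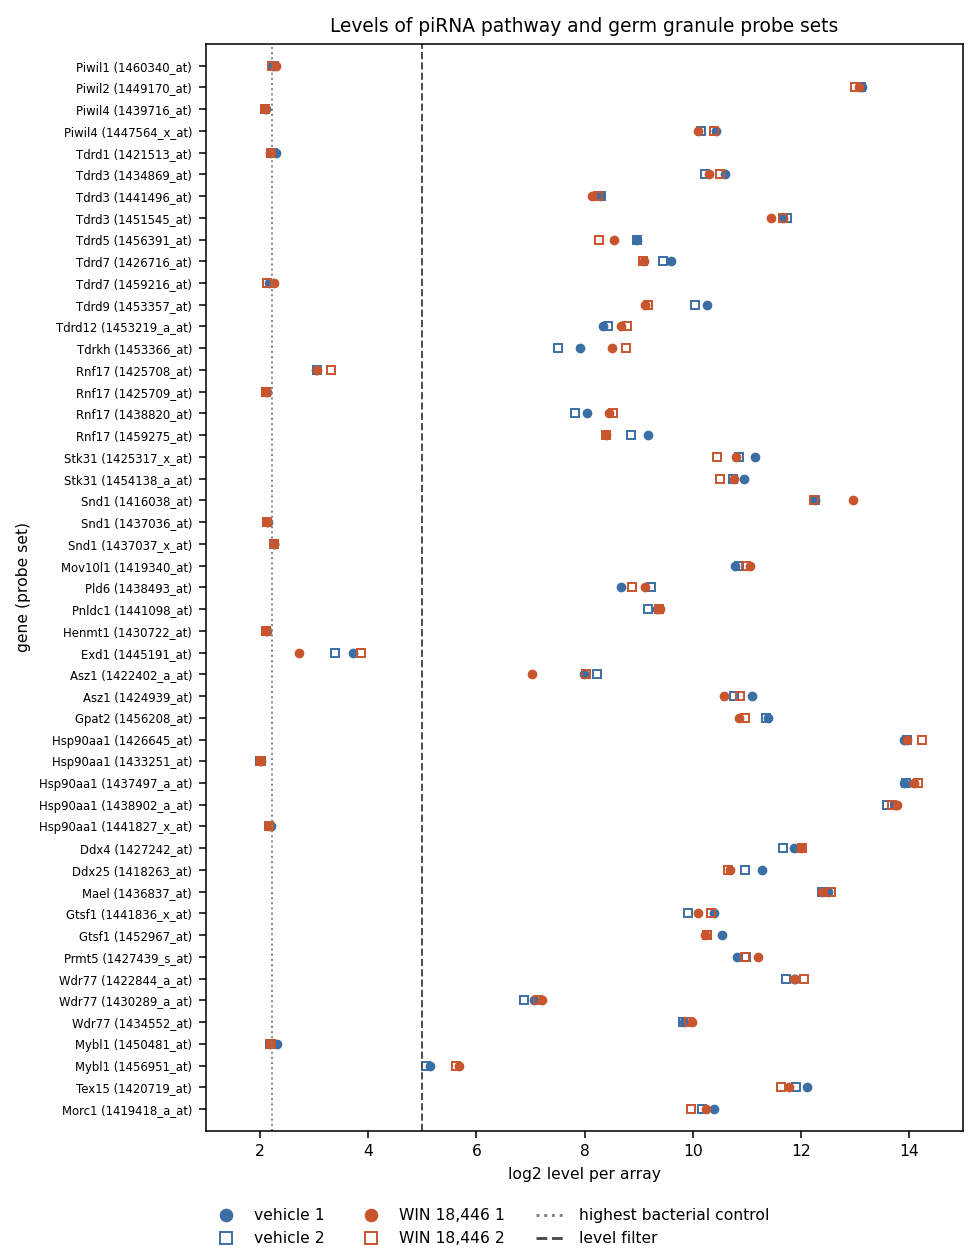
Log2 level (x axis) of each of the 49 probe sets of the piRNA pathway and germ granule genes (y axis) on the 2 vehicle and 2 WIN 18,446 arrays. The dotted line marks the highest bacterial control (2.22) and the dashed line the level of 5 needed for testing: 13 probe sets lie left of it, between 2.01 and 3.87, and 36 lie right of it. Levels of different probe sets depend on their probes and are not compared.

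The arrays of the whole series were alike within each group. Across probe sets tested (not independent of each other), Pearson's r was 0.992 for the vehicle pair, 0.985 for the treated pair and 0.964 to 0.976 for pairs of different groups. Stra8, the germ cell gene that retinoic acid induces, read 7.02 and 6.42 with vehicle and 2.03 and 2.04 with WIN 18,446, and the latter are under 2.22, the highest reading of the bacterial control probe sets without a mouse target. The treated arrays lay apart from each other in 18S ribosomal RNA. Its 5′ control probe set read 8.12 and 8.17 with vehicle and 6.55 and 8.67 with WIN 18,446. The 3′ one read 8.06 and 7.93 with vehicle and 7.27 and 8.76 with WIN 18,446. The one labelled M read 14.2 and 14.3 with vehicle and 13.8 and 14.6 with WIN 18,446. On each of them treated array 1 was the lowest and treated array 2 the highest.

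Of 34 germ cell markers outside the pathway, 24 genes were tested, and their mean log2 level was 10.11 and 10.10 with vehicle and 10.01 and 10.04 with WIN 18,446. Sall4, a zinc finger regulator of the early germ line, fell (-0.60, adjusted p = 0.0157 in limma) and so did Tfap2c, a transcription factor of early germ cells (-0.97, adjusted p = 0.0409). Hells, a chromatin remodeller, rose (0.54, adjusted p = 0.0376), and 21 were not called. The germ cell RNA-binding protein gene Dazl differed by 0.29 (adjusted p = 0.113 in limma). The largest differences in each direction were those of Sohlh2 (1.03, adjusted p = 0.0614 in limma) and Prdm1 (-1.10, adjusted p = 0.066). Neither was called. Prdm1 read 5.70 and 5.58 with vehicle and 4.49 and 4.58 with WIN 18,446. Its mean thus reached the level of 5 needed for testing only through the vehicle arrays. At an unadjusted p under 0.05 limma gave 10 of the 24, each gene by its tested probe set of highest mean. This is a larger share than the 22.0% of all probe sets tested, which counts probe sets and not genes. Of all genes represented by their probe set of highest mean, 6.40% were called. The median over these markers was -0.08, with 11 above 0 and 13 below. The germ cell markers Dmrtb1, Prdm14, Sohlh1 and Utf1 had mean levels under 5. In the same samples the mean log2 level of 21 Sertoli cell markers was 12.74 and 12.69 with vehicle and 12.24 and 12.14 with WIN 18,446. Of these 8 were called, each lower (by smallest p Nr0b1, Cldn11, Sox9, Dhh, Cst12 and Wt1). The Sertoli cell markers did not all fall: 14 differences were below 0 and 7 above. Nr0b1 had the largest negative difference (-3.69), which weighs on the mean. Amh had the largest positive one (1.25, limma adjusted p = 0.0575, not called). For 30 cell cycle genes the mean log2 level was 11.28 and 11.56 with vehicle and 12.19 and 12.29 with WIN 18,446, with 18 called, each higher (by smallest p Mcm6, Cenpf, Kif23, Cdc20, Kif20a and Mcm4). For 9 endothelial markers, of which 1, Robo4, was called lower, it was 8.76 and 9.04 with vehicle and 8.27 and 8.24 with WIN 18,446, while 6 more, Pecam1 and Kdr among them, had mean levels under 5. Of 12 peritubular and stromal markers 2 were called lower (Des and Ogn). None of 8 Leydig cell, 3 macrophage and 1 erythroid markers was called in limma (5, 0 and 1 at an unadjusted p under 0.05). The mean over the 26 tested genes of the pathway was 10.56 and 10.46 with vehicle and 10.46 and 10.43 with WIN 18,446. The part of these other cell types in the values of the pathway was not tested.

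Tudor domain proteins, the scaffolds that bind methylated PIWI proteins, held the largest differences of the set in both directions. Of 11 such genes 9 were tested with 13 probe sets, the most of any class of members here. Of the 13, 1 was called lower, 0 higher and 12 were not called, beside 5.18% called of all probe sets tested. An unadjusted p under 0.05 was seen in 6 of the 13, beside 22.0% of all. Tdrd9 encodes a helicase with a Tudor domain that works with the nuclear PIWI protein in fetal germ cells. Its probe set 1453357_at read 10.26 and 10.05 with vehicle and 9.11 and 9.17 with WIN 18,446. Both treated arrays lay below both vehicle arrays. Tdrd9 thus fell 2.02-fold, from 10.15 ± 0.15 (log2, SD, n = 2) to 9.14 ± 0.04 (log2 difference -1.02, SE 0.14, 95% interval -1.38 to -0.65, limma adjusted p = 0.0301). The call was lost without treated array 1 (-0.99, limma adjusted p = 0.0615) and kept without treated array 2 (-1.04, adjusted p = 0.0443). Without vehicle array 1 the difference was -0.91 (adjusted p = 0.313) and without vehicle array 2 it was -1.12 (adjusted p = 0.189), but limma then called 0 of all 20895 probe sets (2455 and 2820 at an unadjusted p under 0.05), so these losses say nothing about Tdrd9 itself. The call was also lost without a variance trend (adjusted p = 0.0517) and with no level filter (adjusted p = 0.1), where only 3 probe sets of the whole array were called.

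Tdrkh, a Tudor protein of the mitochondrial surface that takes part in trimming piRNA ends, had the largest positive difference. Its probe set 1453366_at read 7.91 and 7.50 with vehicle and 8.51 and 8.76 with WIN 18,446. The groups did not overlap, and the treated mean was 1.9-fold that of the vehicle, but the spread between the vehicle arrays was 0.29 (SD) and limma did not call it (log2 difference 0.93, SE 0.22, 95% interval 0.36 to 1.50, adjusted p = 0.0883). In the fit on 1 mean per gene Tdrkh was called higher (adjusted p = 0.0461). Tdrd5, a Tudor protein needed for transposon silencing, read 8.98 and 8.97 with vehicle and 8.54 and 8.26 with WIN 18,446. Its treated arrays were both lower, with a log2 difference of -0.58 that was not called (95% interval -1.02 to -0.13, adjusted p = 0.143). Tdrd7, which helps to remodel germ granules, read 9.59 and 9.46 with vehicle and 9.10 and 9.07 with WIN 18,446 (-0.44, adjusted p = 0.165). Tdrd12, a partner in loading piRNAs onto the nuclear PIWI protein, read 8.34 and 8.43 with vehicle and 8.68 and 8.79 with WIN 18,446 (0.35, adjusted p = 0.289). In Tdrd7 and Tdrd12 the groups did not overlap, in opposite directions, and neither was called.

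**Figure D2:**
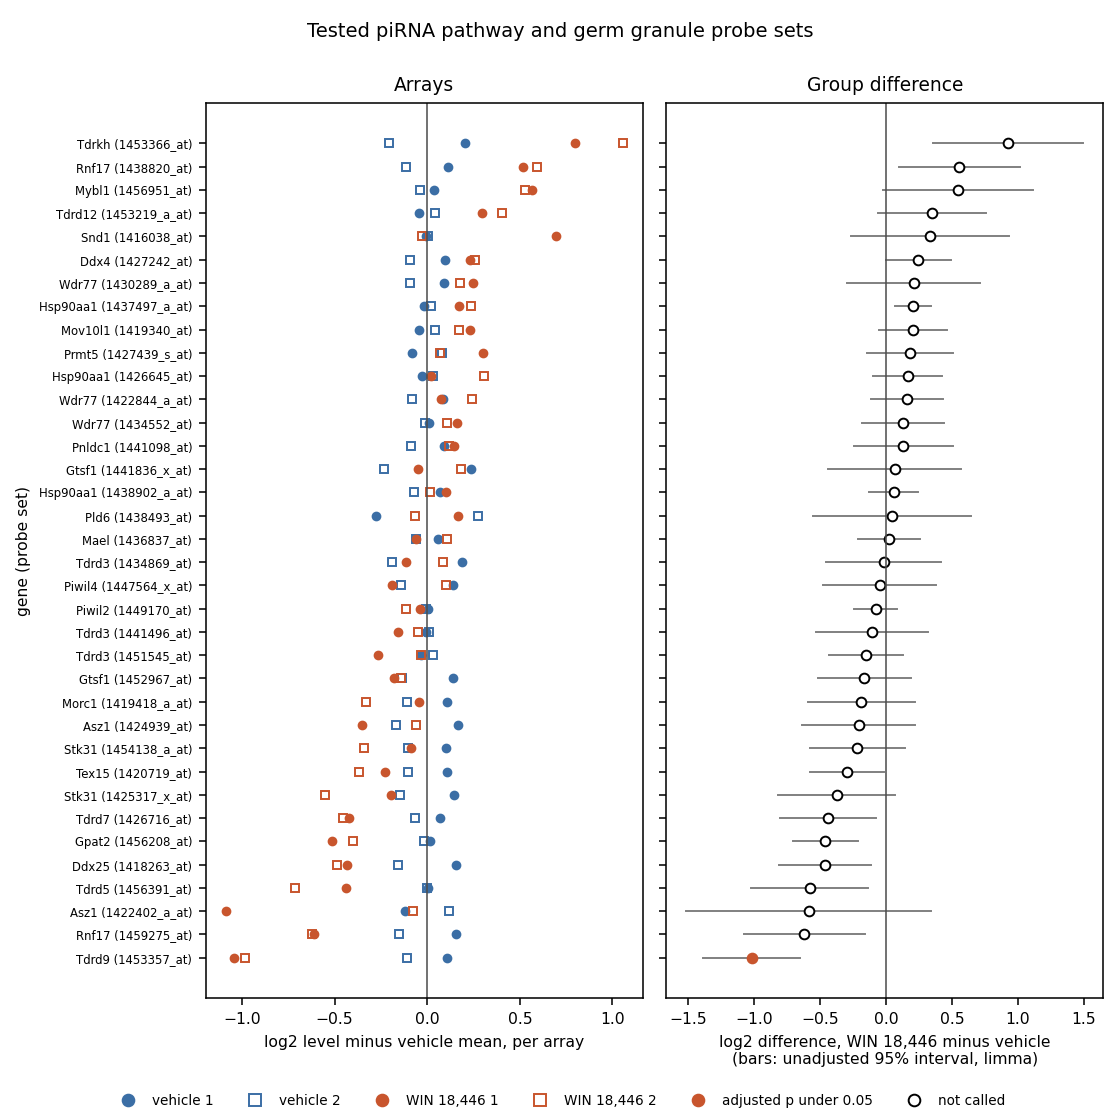
The 36 tested probe sets, ordered by their log2 difference. The left panel gives each array's log2 level minus the vehicle mean, and the right panel the difference, WIN 18,446 minus vehicle, with its unadjusted 95% interval from limma. Tdrd9 at -1.02 is the only filled point of the right panel, and Tdrkh at 0.93 lies at the other end.

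Rnf17, a Tudor protein of its own granule in male germ cells, was measured by 2 tested probe sets with differences of opposite sign. Probe set 1438820_at read 8.05 and 7.82 with vehicle and 8.45 and 8.53 with WIN 18,446 (log2 difference 0.56, 95% interval 0.10 to 1.01, limma adjusted p = 0.163). Probe set 1459275_at read 9.16 and 8.86 with vehicle and 8.40 and 8.39 with WIN 18,446 (-0.62, 95% interval -1.07 to -0.16, adjusted p = 0.131). In both the groups did not overlap and neither was called. Within each array, the first minus the second was -1.12 and -1.04 with vehicle and 0.05 and 0.14 with WIN 18,446, so that its mean was -1.08 ± 0.06 (SD, n = 2) with vehicle and 0.10 ± 0.06 with WIN 18,446, 1.17 log2 units apart. The pair was singled out after its values were seen, and no test of it is given. The remaining Rnf17 probe sets had levels of 2.11 to 3.31.

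The pair of probe sets for Stk31, a kinase-like protein with a Tudor domain, differed by -0.37 and -0.22 (limma adjusted p = 0.297 and 0.452). The 3 for Tdrd3, a reader of methylated arginine found in many tissues, differed by -0.02, -0.11 and -0.15. Snd1, a widely expressed Tudor and nuclease domain protein, read 12.26 and 12.27 with vehicle and 12.96 and 12.24 with WIN 18,446. It was high on treated array 1 alone, so the groups overlapped (0.33, adjusted p = 0.48). Without treated array 2 the Snd1 difference was 0.69 and limma called it higher (adjusted p = 0.0254). In 18S ribosomal RNA treated array 1 was the lowest array and treated array 2 the highest. The part of this in the Snd1 readings was not tested. Tdrd1, which holds the core of the granule together, read 2.30, 2.25, 2.19 and 2.20 on its only probe set, near the highest bacterial control, and was not tested.

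**Figure D3:**
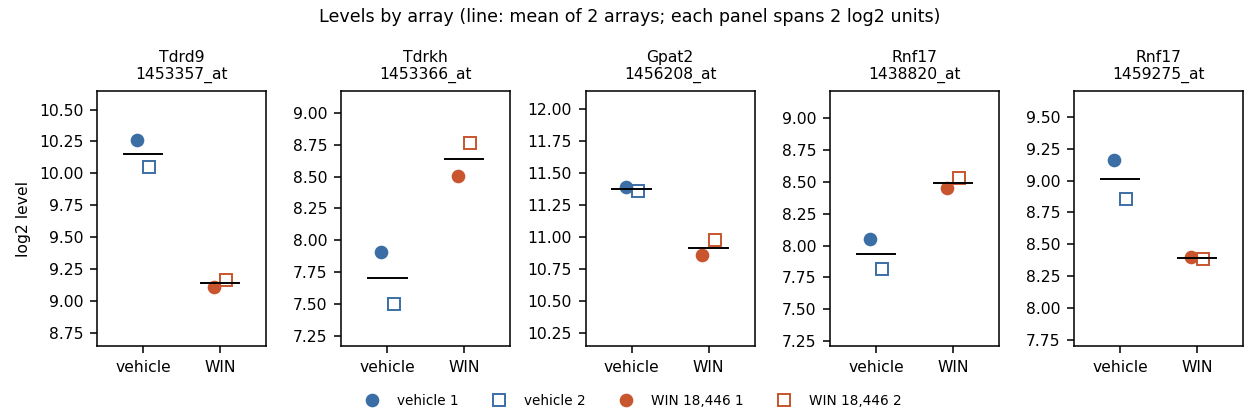
Log2 level (y axis, each panel spanning 2 log2 units) on each array of the vehicle and WIN 18,446 groups for Tdrd9, Tdrkh, Gpat2 and the pair of Rnf17 probe sets, with a line at the mean of 2 arrays. The groups do not overlap in any of the panels, and the differences of the Rnf17 probe sets have opposite signs (0.56 and -0.62).

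The promoters of several members are shown for a sequence they share, the E-box CACGTG. RefSeq's table for GRCm38.p6 holds starts for 24 of the 32 members, with 33 windows, since some genes have more than 1 start and some of their windows overlap. The 250 bases before each start were searched on both strands for CACGTG (E-box), CCAAT (NF-Y), TCCCGC (E2F6) and AACNGTT (MYB family), none of which contains another. The E-box was in 12 of 33 windows (36.4%) and in 9 of 24 genes (37.5%), namely Ddx4, Fkbp6, Mael, Mov10l1, Piwil1, Pld6, Stk31, Tdrd1 and Tdrd9. Among all 32851 windows of the table its share was 6.02%, and among all 27025 genes 6.86%. The members' windows hold more CG dinucleotides (median 18, against 6 over all windows). Among windows with at least 10 of them, the E-box was in 11 of 26 of the members' windows (42.3%) and in 9.37% of all. CCAAT was in 36.4% of the members' windows and 33.9% of all, TCCCGC in 21.2% and 16.9%, and AACNGTT in 3.03% and 3.80%. By gene, CCAAT was in 50% of the members and 37.5% of all, TCCCGC in 29.2% and 18.8%, and AACNGTT in 4.17% and 4.27%. Among windows with at least 10 CG dinucleotides, CCAAT was in 42.3% of the members' windows and 33.1% of all. TCCCGC was in 26.9% and 37.3% of these, and AACNGTT in 0% and 2.27%. A match is a description of these letters, not a bound site. The windows printed were chosen after the values were seen: Tdrd9 as the gene called, Ddx4, Mael and Mov10l1 as E-box genes that were not called, and Tdrkh and Gpat2 as the genes with the smallest adjusted p after Tdrd9, which have no E-box there. They run 5′ to 3′ towards the start, on the strand of the gene, with matches to any of the 4 motifs in capitals. Tdrd9 is at chr12:111971309-111971558, plus strand, Ddx4 at chr13:112652311-112652560, minus strand, Mael at chr1:166238745-166238994, minus strand, Mov10l1 at chr15:88982744-88982993, plus strand, Tdrkh at chr3:94412994-94413243, plus strand, and Gpat2 at chr2:127424949-127425198, plus strand.
Tdrd9: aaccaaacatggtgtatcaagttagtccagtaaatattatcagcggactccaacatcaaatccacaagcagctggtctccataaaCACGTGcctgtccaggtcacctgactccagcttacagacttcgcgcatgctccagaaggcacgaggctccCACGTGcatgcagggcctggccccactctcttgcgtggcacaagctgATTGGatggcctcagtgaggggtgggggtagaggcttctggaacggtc
Ddx4: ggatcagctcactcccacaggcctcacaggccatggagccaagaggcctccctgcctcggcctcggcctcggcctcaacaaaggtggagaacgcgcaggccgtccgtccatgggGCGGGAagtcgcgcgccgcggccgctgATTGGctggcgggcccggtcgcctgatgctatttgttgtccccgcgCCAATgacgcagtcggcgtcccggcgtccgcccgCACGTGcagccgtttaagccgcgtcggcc
Mael: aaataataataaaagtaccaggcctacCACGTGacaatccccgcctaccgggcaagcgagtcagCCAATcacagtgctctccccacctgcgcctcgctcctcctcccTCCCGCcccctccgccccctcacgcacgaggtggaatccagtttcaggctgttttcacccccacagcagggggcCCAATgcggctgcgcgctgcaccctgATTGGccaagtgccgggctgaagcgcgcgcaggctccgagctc
Mov10l1: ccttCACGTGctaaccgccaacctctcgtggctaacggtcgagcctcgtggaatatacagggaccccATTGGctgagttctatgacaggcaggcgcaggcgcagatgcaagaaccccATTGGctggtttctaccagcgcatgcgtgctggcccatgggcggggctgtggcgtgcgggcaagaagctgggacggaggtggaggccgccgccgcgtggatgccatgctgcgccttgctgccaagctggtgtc
Tdrkh: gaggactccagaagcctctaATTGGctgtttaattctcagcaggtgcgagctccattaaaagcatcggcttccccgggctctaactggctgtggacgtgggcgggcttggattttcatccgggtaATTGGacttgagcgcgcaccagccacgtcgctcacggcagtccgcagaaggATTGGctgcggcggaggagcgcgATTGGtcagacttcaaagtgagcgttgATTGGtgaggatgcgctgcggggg
Gpat2: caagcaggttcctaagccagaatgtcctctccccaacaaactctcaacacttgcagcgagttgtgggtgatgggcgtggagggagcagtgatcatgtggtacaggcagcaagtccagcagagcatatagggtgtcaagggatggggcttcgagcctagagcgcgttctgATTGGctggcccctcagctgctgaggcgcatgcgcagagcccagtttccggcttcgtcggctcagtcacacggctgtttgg

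In these windows Tdrd9 holds 2 E-boxes and 1 CCAAT, Ddx4 holds 1 E-box, 2 CCAAT and 1 TCCCGC, and Tdrkh holds 5 CCAAT. Of the E-box genes tested, the log2 difference of the probe set of highest mean was -1.02 for Tdrd9, -0.37 for Stk31, 0.02 for Mael, 0.05 for Pld6, 0.20 for Mov10l1 and 0.24 for Ddx4. Their differences thus lay on both sides of 0. The 1 of the 6 that was called is Tdrd9, already named above, beside 6.40% of all genes represented in the same way. It says nothing about E-box genes as a group.

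The PIWI genes themselves were not called, and neither of their 2 tested probe sets had an unadjusted p under 0.05 in limma. Piwil2, the cytoplasmic PIWI protein MILI that starts piRNA production in fetal germ cells, read 13.12 and 13.11 with vehicle and 13.08 and 13.00 with WIN 18,446 (log2 difference -0.08, 95% interval -0.24 to 0.09, limma adjusted p = 0.554). The treated arrays lay just below the vehicle arrays, and the interval was among the narrowest of the set. Piwil4, the nuclear PIWI protein MIWI2, read 10.43 and 10.15 with vehicle and 10.10 and 10.39 with WIN 18,446 on probe set 1447564_x_at (-0.05, 95% interval -0.47 to 0.38, adjusted p = 0.907). The ending x marks a probe set with probes that can match other transcripts, and a further Piwil4 probe set, 1439716_at, read 2.09 to 2.10 on all 4 arrays. Piwil1, the PIWI protein MIWI of later meiotic and spermatid stages, read 2.21 to 2.30 and was not tested.

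Among the genes that cut, trim and finish piRNAs, 6 of 9 were tested with 9 probe sets, and limma called none (2 had an unadjusted p under 0.05, for Gpat2 and Hsp90aa1). Gpat2, a mitochondrial acyltransferase homologue needed for piRNA production, came nearest. It read 11.39 and 11.36 with vehicle and 10.86 and 10.97 with WIN 18,446. The groups did not overlap and the spread within each was small (SD 0.02 and 0.08), with a log2 difference of -0.46 (SE 0.10, 95% interval -0.71 to -0.21, limma adjusted p = 0.0685). In the fit on 1 mean per gene Gpat2 was called lower (adjusted p = 0.0381). Mov10l1, the helicase that feeds precursors to the nuclease, read 10.78 and 10.86 with vehicle and 11.05 and 10.99 with WIN 18,446 (0.20, adjusted p = 0.326). Pld6, the mitochondrial surface nuclease that cuts precursors, read 8.68 and 9.23 with vehicle and 9.12 and 8.89 with WIN 18,446. Its vehicle arrays spanned the treated arrays (0.05, 95% interval -0.55 to 0.65, adjusted p = 0.93). Pnldc1, the exonuclease that trims piRNA 3′ ends, differed by 0.13 (adjusted p = 0.663).

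Asz1, a germ granule protein anchored at mitochondria, was lower on both of its probe sets, by amounts within the spread. Probe set 1422402_a_at read 7.99 and 8.23 with vehicle and 7.02 and 8.03 with WIN 18,446 (-0.58, 95% interval -1.51 to 0.35, limma adjusted p = 0.431). The low value was on treated array 1, and leaving out single arrays gave -1.09 to -0.08, while the other probe set differed by -0.21 (adjusted p = 0.544). The chaperone gene Hsp90aa1, active in loading PIWI proteins and in most cells, differed by 0.16, 0.20 and 0.06 on its 3 tested probe sets. On the narrowest of them, 1437497_a_at, the arrays read 13.90 and 13.94 with vehicle and 14.09 and 14.16 with WIN 18,446 (95% interval 0.07 to 0.34, adjusted p = 0.107). Henmt1, which methylates piRNA 3′ ends, read 2.11 to 2.12, and Exd1, an RNA-binding partner of Tdrd12, read 3.71 and 3.40 with vehicle and 2.72 and 3.87 with WIN 18,446. Neither reached the level for testing.

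The germ granule helicases and assembly factors held Ddx4, the helicase VASA that marks germ cells. Ddx4 read 11.86 and 11.68 with vehicle and 12.00 and 12.03 with WIN 18,446, with the treated arrays above the vehicle arrays (log2 difference 0.24, 95% interval -0.0015 to 0.49, limma adjusted p = 0.23). Ddx25, a helicase studied for its part in spermatid translation, read 11.29 and 10.98 with vehicle and 10.70 and 10.65 with WIN 18,446, with the treated arrays below (-0.46, 95% interval -0.81 to -0.11, adjusted p = 0.138). Mael, which acts in granules and in transposon silencing, read 12.50 and 12.39 with vehicle and 12.39 and 12.55 with WIN 18,446 (0.02, 95% interval -0.21 to 0.26, adjusted p = 0.917), a sign that turned when array medians were set equal (-0.016). Gtsf1, a small zinc finger protein that aids PIWI proteins in cutting, differed by 0.07 and -0.16 on its probe sets. None of the 4 genes was called in limma, and 1 of their 5 probe sets, that of Ddx25, had an unadjusted p under 0.05.

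Prmt5, the enzyme that methylates the arginines that Tudor domains read, and Wdr77, its obligate partner, were above 0 in all 4 of their probe sets, from 0.13 to 0.21, and none was called (limma adjusted p from 0.457 to 0.599, and 0 at an unadjusted p under 0.05). Prmt5 read 10.83 and 10.99 with vehicle and 11.21 and 10.98 with WIN 18,446, so its groups overlapped, and leaving out single arrays gave 0.07 to 0.30. Of the nuclear factors, Tex15, which acts with the nuclear PIWI protein in DNA methylation, read 12.11 and 11.90 with vehicle and 11.78 and 11.64 with WIN 18,446 (-0.30, 95% interval -0.58 to -0.02, adjusted p = 0.207). Morc1, a silencer of transposons in male germ cells, read 10.40 and 10.18 with vehicle and 10.24 and 9.96 with WIN 18,446 (-0.19, adjusted p = 0.559). Its groups overlapped, and leaving out single arrays gave -0.33 to -0.04. Mybl1, the transcription factor A-MYB that drives piRNA genes in meiosis, read 5.14 and 5.07 with vehicle and 5.67 and 5.63 with WIN 18,446, just above the level needed for testing (0.55, 95% interval -0.02 to 1.11, adjusted p = 0.241). Its other probe set read 2.19 to 2.31.

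Repeated probe sets gave a check within genes. Of the 7 members with more than 1 tested probe set, 5 had the same sign in all of them (Asz1, Hsp90aa1, Stk31, Tdrd3 and Wdr77) and 2 did not (Gtsf1 and Rnf17). The Gtsf1 differences lay within the spread between arrays on 1 of its probe sets, while those of Rnf17 did not overlap between groups on either. Of the 13 probe sets that were not tested, 11 had means under 2.5 and 6 lay at or below 2.22 on all 4 arrays.

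Genes that work beside the pathway showed a like mixture. Of 39 listed partners outside the set 31 were tested, and 1 rose, 1 fell and 29 were not called. Over all genes, each by its probe set of highest mean, 6.40% were called. The median log2 difference of the partners was 0.05. Hells, also counted among the germ cell markers, rose from 11.34 and 11.44 to 11.93 and 11.92. It takes part in DNA methylation, and cell cycle genes rose in the same samples. Whether the Hells difference is tied to theirs was not tested. Fkbp4, a co-chaperone of HSP90, fell from 12.64 and 12.67 to 12.23 and 12.09 (-0.49, limma adjusted p = 0.0404). The chromatin regulator Uhrf1 differed by 0.71 (adjusted p = 0.0791) and the mitochondrial anchor protein Akap1 by 0.70 (adjusted p = 0.066), and neither was called. Dnmt3l, the cofactor of DNA methylation in fetal male germ cells, had a mean level under 5. P-body proteins form the cytoplasmic granules where the nuclear PIWI protein also collects. Of 26 tested genes for them and for the removal of poly(A) tails, none was called by limma. An unadjusted p under 0.05 was seen in 5 of the 26, beside 22.0% of all probe sets tested. The median difference of the 26 was -0.01. The largest was Ago4, an Argonaute protein of small RNA silencing, at -0.88 (adjusted p = 0.0887).

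**Figure D4:**
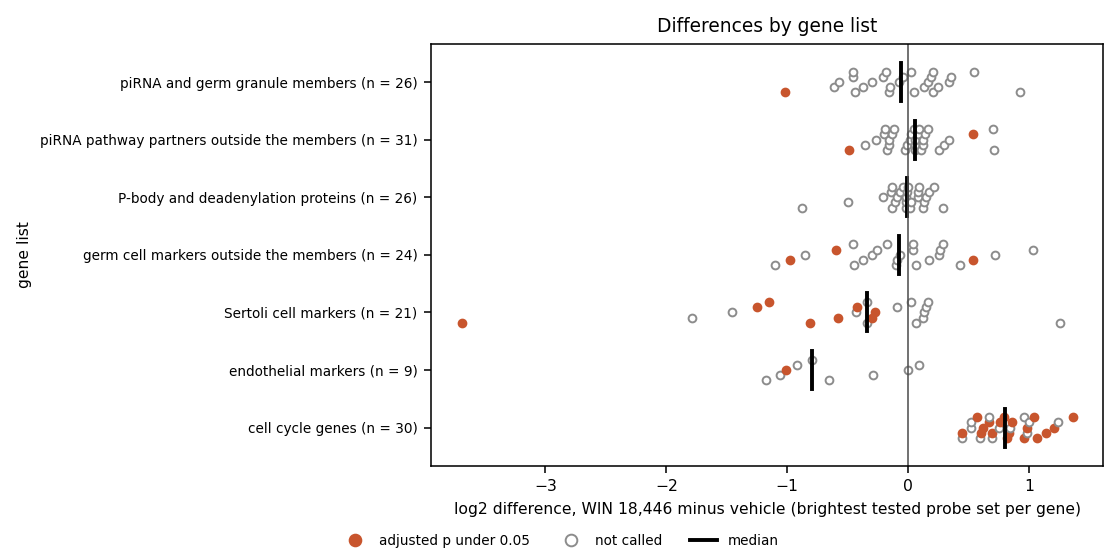
Log2 difference, WIN 18,446 minus vehicle (x axis), of the tested genes of 7 lists (y axis), each gene by its tested probe set of highest mean. Bars mark medians: -0.06 for the 26 members, 0.05 for the partners, -0.01 for P-body and deadenylation proteins, -0.08 for other germ cell markers, -0.34 for Sertoli, -0.80 for endothelial markers and 0.80 for cell cycle genes, and filled points passed the adjusted p of 0.05.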

How the data were processed

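Log2 levels per probe set were taken from the value table the authors deposited, 1 column per array, already normalized between arrays. RMA and GCRMA are named, per the submitters' processing notes, but not which made the table; versions are not given in the sources used here. The scale was read from the values (column medians 3.72 to 3.83), and signs are WIN 18,446 minus vehicle. The 64 control probe sets were left out, and the 20895 probe sets with a mean of at least 5 (46.4% of the rest) were fitted with limma 3.58.1 in R 4.3.3 (lmFit, eBayes with a variance trend, two-sided, 2 residual and 3.19 prior degrees of freedom), with Benjamini-Hochberg adjustment over all of them. The fit was tested on simulated data, where false calls were on average more frequent than the adjusted threshold allows. The calls given here, that of Tdrd9 among them (adjusted p = 0.0301 in limma), were made at that threshold. The share of false calls among them was not tested. Gene names come from GEO's array annotation: 34945 probe sets have 1 symbol, 932 several and 9160 none.

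The members and lists were chosen with earlier results of these data known. All members are named; of other lists, the called genes (at most 6 a list, by smallest p) and a few picked by their values. Results were recomputed under other level filters (none, 7, or 2 arrays at 5), after renewed quantile normalization or with medians made equal, without the variance trend, with robust eBayes, with replicate number as block, leaving out single arrays, from 1 mean per gene, and with the threshold at 0.10. Precision is limited by having 2 arrays a group.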

Additional observations from a re-analysis of the deposited data

How the results depend on the processing

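Tdrd9 remained the only pathway probe set called, and as lower, with a mean of at least 7, with 2 of 4 arrays at 5 or above, after quantile normalization, with equal medians and with robust moderation. With no filter limma called 3 probe sets in all (5250 at an unadjusted p under 0.05) and 0 of the pathway (11), and without a variance trend 372 and 0 (10 at an unadjusted p under 0.05). Leaving out each array gave 0 to 1398 calls in all, 0 to 1 pathway probe sets higher and 0 to 1 lower. Without vehicle array 1 there were 0 calls in all (2455 at an unadjusted p under 0.05, 5 in the pathway), without vehicle array 2 also 0 (2820 and 5), and without treated array 1 there were 664 calls, 0 of them in the pathway (11 at an unadjusted p under 0.05). The remaining array of a group was then assumed to vary like the other group. At an adjusted p under 0.10 there were 2216 calls in all, with 1 pathway probe set higher (Tdrkh) and 2 lower (Tdrd9 and Gpat2). With 1 mean value per gene, limma called 3 of the 26 member genes, Tdrd9 (adjusted p = 0.0114), Gpat2 (0.0381) and Tdrkh (0.0461), beside 10.3% of all genes. Each of the 3 has 1 tested probe set, so their levels are the same in both fits. The number of values fitted differs, and so do the standard errors (for Tdrkh 0.209, beside 0.223 in the main fit). Whether same-numbered arrays belong together is not labelled. Their deviations correlated at 0.014, which cannot decide it, since each group gives only 1 such difference per probe set. The fit with the replicate block called 1467 probe sets, beside 1083 without it, and 1 of the pathway. Signs turned for small differences: Tdrd3 (1434869_at) was 0.0024 after quantile normalization and Mael -0.016 with equal medians. When arrays were left out, the difference ran from -0.17 to 0.30 for Gtsf1 (1441836_x_at), -0.0090 to 0.13 for Hsp90aa1 (1438902_a_at), -0.061 to 0.11 for Mael, -0.19 to 0.10 for Piwil4, -0.23 to 0.32 for Pld6, -0.028 to 0.69 for Snd1 and -0.20 to 0.17 for Tdrd3 (1434869_at). The cause of these shifts was not tested.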
